A study of Mus musculus with 29 samples.

Results

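Lesion and naive cortical cultures were compared at day 3 after plating, in 3 Lesion_D3 and 3 Naive_D3 libraries, chosen by the group in their titles, out of 29 libraries in the whole study. All 6 were made from cortical cells of adult wild-type (WT) C57/BL6 mice, labelled as adult neurons in primary cortical culture. The lesion libraries came from animals that had been given a conditioning lesion in vivo a day before their neurons were plated. The naive libraries came from animals with no treatment, and both groups were harvested at day 3. The study collected lesion and naive cultures at days 1, 2, 3, 5 and 7, in 10 groups, from ultra-low-input RNA libraries. It asks, by its title, whether an injury of the central nervous system conditions adult neurons. The labels do not give the site of the lesion or the age of the mice, nor do they say if replicate libraries stem from different cultures or animals.

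A conditioning lesion is an injury made some time before a cell is tested for growth. In peripheral sensory neurons such a first injury is known to raise a program of regeneration-associated genes, among them the transcription factors Atf3 and Jun, and to speed axon growth after a second injury. Dissociation and plating are injuries of their own, which are known to evoke heat shock, immediate early and integrated stress response genes. A culture of adult cortex can also hold glia and vessel cells, so markers of these cells were followed beside those of neurons.

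The data used are the authors' deposited table of comparisons, which gives for each of 5826 genes a log2 fold change of lesion over naive, a p-value and an adjusted p-value at each day. Positive values mean higher in lesion cultures. A gene was listed if it passed an adjusted p of 0.1 at any day, and the adjusted values correspond to 19085 genes tested, so the table holds 30.5% of them. "Rose" and "fell" are used here only for an adjusted p under 0.1 by the authors' limma-voom test. A value after ± is the standard error implied by the fold change and its p-value. No value per library was used, so levels in single libraries, overlap between groups and sequencing depth are unknown here. With replicates of unstated origin, the p-values measure only spread between libraries, which may be technical. The authors' fit may have taken that spread from all 29 libraries, not from the 6 of day 3 alone.

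The neuronal label could be checked only by a column of ranks, taken to rank mean expression over the study with 1 the highest; it may carry transcript length. Pan-neuronal markers in the table had a median rank of 957, with Rtn1 (reticulon 1) at 69, Stmn3 (a microtubule regulator) at 81 and Tubb3 (neuronal tubulin) at 321. The medians were 5429 for microglia and macrophage, 6906 for endothelial, 8807 for astrocyte and 8857 for oligodendrocyte markers. They cover only markers that passed at some day, in this order 6 of 31, 25 of 40, 13 of 26 and 11 of 28. Of the pan-neuronal markers 23 of 30 did. Ranks of the other markers are unknown here. Markers of neuron classes had medians of 7016 (GABAergic) and 8484 (glutamatergic). Some markers of other cells stood high as well, with Lyz2 (a macrophage lysozyme) at 270 and Cnp (a myelin enzyme) at 856. The first astrocyte marker stood at 42 and the first endothelial marker at 62, both ahead of Rtn1.

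At day 3, 102 genes rose (0.534% of the genes tested) and 180 fell (0.943%), which is 282 or 1.48% in all. Risen genes had log2 fold changes of 0.60 to 3.56, with a median of 1.14 and a median rank of 3437.5. Fallen genes had log2 fold changes of -7.97 to -0.65, with a median of -3.95 and a median rank of 11919. Among the 4771 most expressed of the genes tested 66 rose and 20 fell. In the next 4771 genes, 32 rose and 36 fell, and in the 4771 after these, 4 rose and 88 fell. None of the 4772 least expressed genes rose and 36 fell. Among the more expressed 9542 genes risen genes outnumbered fallen ones, with 98 (1.03%) against 56 (0.587%).

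The error of a fold change grew with rank: the median implied standard error was 0.258 in the first of these 4 classes and 1.30 in the last. The smallest change that passed was 0.60 in the first and 3.58 in the last, so a weakly expressed gene could pass only with a large change, and the table does not show how many reads such a change rests on. The threshold fell in a dense stretch of p-values. The last gene inside it had an adjusted p of 0.0995, the first outside it 0.1004, and 83 genes lay between 0.1 and 0.12. Over all genes tested, 3149 had an unadjusted p under 0.05 (16.5%), against 954 that p alone would give.

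**Figure D1:**
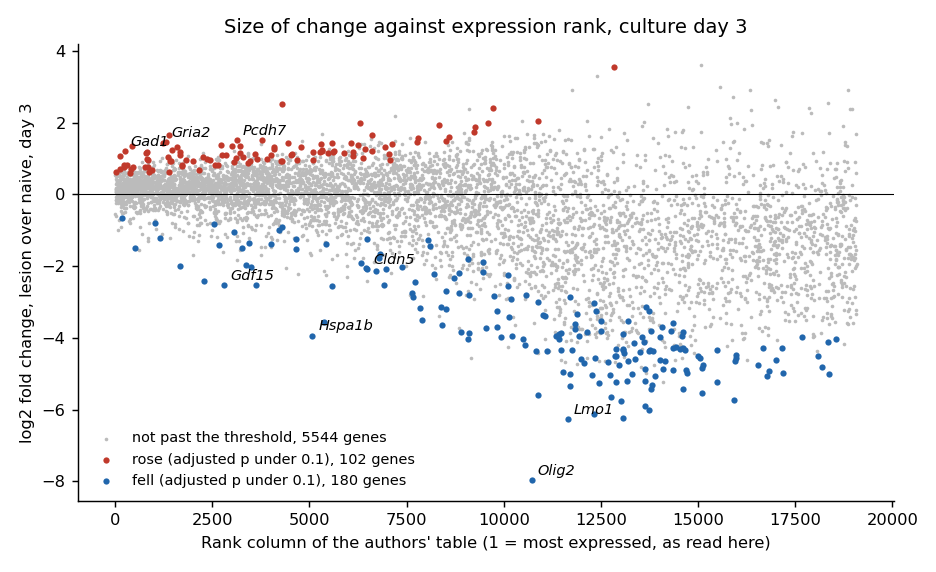
Log2 fold change of lesion over naive at day 3 (vertical axis) against the rank column of the authors' deposited table (horizontal axis, 1 read as most expressed); each point is 1 gene, red if it rose, blue if it fell, grey if it was not past an adjusted p of 0.1. The 102 risen genes lie mostly at the left with small changes, and the 180 fallen genes spread to the right with larger ones.

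Genes of the stress response fell, and the heat shock gene Hspa1b and the stress cytokine gene Gdf15 had, with Lmo1, the lowest adjusted p-values of the comparison. Hspa1b and Hspa1a code for the inducible Hsp70 chaperone, which refolds damaged proteins. Hspa1b fell by 3.94 ± 0.65 log2 units in the authors' deposited table, 15.4-fold lower in lesion cultures (adjusted p = 0.00316). Hspa1a fell by 3.56 ± 0.65 log2 units in the authors' deposited table (adjusted p = 0.00723). The 2 genes are neighbours at chr17:34956436-34959238 and chr17:34969190-34972156 on the minus strand of GRCm38, each with 1 exon, and nearly identical, so the split of reads between them is uncertain. Hspb1, a small heat shock protein that binds unfolded proteins and actin, is known to rise in injured sensory neurons. In these cultures it fell by 2.54 ± 0.60 log2 units in the authors' deposited table (adjusted p = 0.049).

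The promoters of the fallen heat shock genes are shown for a shared motif match. All 3 hold a core of the motif of heat shock factor 1, the transcription factor of this response. The windows run from 250 bases before to 50 bases after the start site and come from RefSeq (GRCm38.p6), at chr17:34959189-34959488 on the minus strand for Hspa1b and chr5:135887669-135887968 on the plus strand for Hspb1. Capitals mark GAANNTTC, a core of the heat shock element that is its own reverse complement and is called the element below. Longer forms were not searched for.
Hspa1b promoter: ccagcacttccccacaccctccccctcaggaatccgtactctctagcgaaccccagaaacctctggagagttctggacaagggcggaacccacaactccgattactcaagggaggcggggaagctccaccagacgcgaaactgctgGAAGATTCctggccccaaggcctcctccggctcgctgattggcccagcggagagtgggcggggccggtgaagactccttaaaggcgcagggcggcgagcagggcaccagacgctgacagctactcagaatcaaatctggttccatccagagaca
Hspb1 promoter: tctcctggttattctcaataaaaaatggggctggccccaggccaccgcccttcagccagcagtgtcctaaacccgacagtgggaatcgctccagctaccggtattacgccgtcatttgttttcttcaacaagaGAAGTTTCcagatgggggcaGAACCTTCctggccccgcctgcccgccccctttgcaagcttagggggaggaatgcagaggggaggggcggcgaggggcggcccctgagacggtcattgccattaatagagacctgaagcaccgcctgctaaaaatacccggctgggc
Relative to the start site, the element begins at -104 in Hspa1b and at -117 and -97 in Hspb1. The window of Hspa1a holds it at the same place and is identical to that of Hspa1b at 296 of 300 bases. Of 32851 RefSeq promoter windows, 2582 (7.86%) hold the element. Among the heat shock genes that did not pass, 6 of the 14 with a window hold it, and so do 4 of 76 windows of risen and 9 of 124 windows of fallen genes of the whole comparison.

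These 3 were the only members of the heat shock and co-chaperone list that passed, out of 45 listed and 23 in the table (6.67% of those listed, against 0.943% of all genes tested). None rose. Of those not past, the Hsp110 gene Hsph1 had -0.83 ± 0.25, the lens and glial chaperone Cryab -1.56 ± 0.58 and the co-chaperone Dnaja4 -1.45 ± 0.46 log2 units in the authors' deposited table. The gene of heat shock factor 2, Hsf2, had 1.14 ± 0.39 log2 units in the authors' deposited table (adjusted p = 0.15). The 3 that fell had ranks of 5078 (Hspa1b), 5366 (Hspa1a) and 3626 (Hspb1), all among the more expressed 9542 genes.

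Further genes of cellular stress fell. Gdf15, a secreted stress cytokine, fell by 2.53 ± 0.41 log2 units in the authors' deposited table (5.80-fold lower, adjusted p = 0.00316). Ppp1r15a, or Gadd34, which restores translation after the integrated stress response, fell by 1.23 ± 0.23 log2 units in the authors' deposited table (adjusted p = 0.00723). It was the only 1 of 33 genes of the unfolded protein and integrated stress response list that passed (3.03%, against 0.943% of all genes tested). The pseudokinase gene Trib3, from the same arm, had -1.17 ± 0.46. Ppp1r15a was lower in lesion cultures at all 5 days, at -0.85, -0.76, -1.23, -0.38 and -0.81 in the authors' deposited table for days 1, 2, 3, 5 and 7, and passed at days 2, 3 and 7.

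The metallothionein genes Mt1 and Mt2 fell. They code for small proteins that bind zinc and copper and are known to be induced by metal through the factor MTF-1. Mt2 fell by 1.05 ± 0.23 log2 units in the authors' deposited table (adjusted p = 0.0381). Mt1, at rank 169, fell by 0.65 ± 0.17 log2 units in the authors' deposited table (adjusted p = 0.0714). Slc30a1, the gene of the zinc exporter ZnT1 and another known target of MTF-1, fell by 1.79 ± 0.48 log2 units in the authors' deposited table (adjusted p = 0.0765); it is in no list and was chosen after its value was seen. Mt3, a metallothionein gene of the brain, had -0.71 ± 0.45 log2 units in the authors' deposited table (adjusted p = 0.433). Mt1 and Mt2 were the only 2 of 33 oxidative stress genes that passed (6.06% of those listed, against 0.943% of all genes tested). Gstp1 had -0.80 ± 0.25 and Nfe2l2, the gene of the factor Nrf2, -1.16 ± 0.37 log2 units in the authors' deposited table.

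The metallothionein promoters are printed to show the motif matches that the 3 zinc genes share, from RefSeq (GRCm38.p6) at chr8:94178839-94179138 for Mt1 and chr8:94172368-94172667 for Mt2, both on the plus strand. Capitals mark the core of the metal response element, TGCACNC or TGCGCNC, on either strand.
Mt1 promoter: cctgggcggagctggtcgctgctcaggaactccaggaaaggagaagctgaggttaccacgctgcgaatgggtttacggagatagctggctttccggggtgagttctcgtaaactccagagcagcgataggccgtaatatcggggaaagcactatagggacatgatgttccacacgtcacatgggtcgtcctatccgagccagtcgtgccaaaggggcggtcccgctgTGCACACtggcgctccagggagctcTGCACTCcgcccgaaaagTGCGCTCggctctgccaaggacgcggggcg
Mt2 promoter: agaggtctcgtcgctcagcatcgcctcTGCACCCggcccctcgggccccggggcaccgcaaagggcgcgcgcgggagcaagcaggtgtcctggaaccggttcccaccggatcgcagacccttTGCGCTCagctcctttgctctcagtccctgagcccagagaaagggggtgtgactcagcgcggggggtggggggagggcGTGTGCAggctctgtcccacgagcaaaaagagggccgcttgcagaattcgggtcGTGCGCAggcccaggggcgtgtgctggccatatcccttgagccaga
There are 3 matches in the Mt1 window, 4 in that of Mt2 and 2 in that of Slc30a1 (chr1:191906531-191906830, plus strand). Of all RefSeq windows 25.7% hold at least 1 match and 7.11% hold 2 or more. This motif, too, was chosen after the values were seen.

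No regeneration-associated gene passed as higher at day 3. Of 51 listed and 30 in the table, none rose (4 were above 0 at an unadjusted p under 0.05) and 2 fell, Hspb1 and Cebpd (3.92% of those listed, against 0.943% of all genes tested). Cebpd, a transcription factor of inflammatory and injury responses, fell by 2.14 ± 0.55 log2 units in the authors' deposited table (adjusted p = 0.072). Jun, a core factor of the injury program, had -0.97 ± 0.39 log2 units in the authors' deposited table (adjusted p = 0.213). Among 35 immediate early genes Arc, which acts at active synapses, fell by 1.36 ± 0.39 and Cyr61, a secreted matrix protein, fell by 1.48 ± 0.42 log2 units in the authors' deposited table. These 2 were 5.71% of those listed, against 0.943% of all genes tested. Of the same list, Ier3 had -1.80 ± 0.53 and Nr4a1 0.76 ± 0.28 log2 units in the authors' deposited table, neither past the threshold. Among 25 p53 and apoptosis genes the initiator caspase gene Casp8 fell by 2.23 ± 0.61, and among 31 glycolysis and hypoxia genes Adm (adrenomedullin) fell by 2.44 ± 0.60 log2 units in the authors' deposited table. Casp8 and Adm were 4% and 3.23% of their lists, against 0.943% of all genes tested. Of 45 growth cone and cytoskeletal genes, with 35 in the table, none passed by limma (7 above and 1 below 0 at an unadjusted p under 0.05); Map2, of dendritic microtubules, had 0.89 ± 0.28 and Dcx, of migrating neurons, 0.82 ± 0.28 log2 units in the authors' deposited table.

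Genes of neurotransmission were among those that rose in lesion cultures. Of 33 glutamate receptor genes, with 20 in the table, 4 rose (12.1% of those listed, against 0.534% of all genes tested) and none fell. Gria2, the AMPA receptor subunit that keeps calcium out of the channel (chr3:80681450-80802835, minus strand), rose by 1.46 ± 0.28 log2 units in the authors' deposited table (2.74-fold, adjusted p = 0.00806). The kainate receptor genes Grik1 and Grik5 rose by 1.39 ± 0.34 and 1.20 ± 0.34 log2 units in the authors' deposited table. Neto2, an auxiliary subunit of kainate receptors, rose by 2.52 ± 0.67 log2 units in the authors' deposited table, the second highest change of all risen genes after Cbln2 (3.56 ± 0.98), a secreted organizer of synapses. Of those not past, Gria4 had 1.04 ± 0.31 and Grik2 1.57 ± 0.49 log2 units in the authors' deposited table. Above 0 were 17 of the 20 list members in the authors' deposited table, with a median of 0.92, beside -0.10 for all table genes.

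Core markers of GABAergic neurons, the inhibitory cells of cortex, rose as well. Gad1, an enzyme that makes GABA, rose by 1.21 ± 0.29 log2 units in the authors' deposited table (adjusted p = 0.053), and Gad2, its partner enzyme, by 1.23 ± 0.33 (adjusted p = 0.0765). In all, 3 of 38 GABAergic markers rose (7.89%, against 0.534% of all genes tested), with 29 of them in the table, and none fell. The subtype marker Sst (somatostatin) had 2.38 ± 0.85 and the interneuron genes Nxph1 and Adarb2 had 1.11 ± 0.34 and 1.00 ± 0.31 log2 units in the authors' deposited table. Of the 29 markers 21 were above and 8 below 0, with a median of 0.41. At an unadjusted p under 0.05, 10 were above and 2 below 0. The 2 below 0 were Lhx6, a factor of interneuron lineage, at -3.51 ± 1.46 and the neuropeptide gene Tac1 at -2.70 ± 0.99 log2 units in the authors' deposited table. Among GABA and glycine receptor genes Glrb, the glycine receptor beta subunit, rose by 1.28 ± 0.34 log2 units in the authors' deposited table, and all 7 of the 21 listed that are in the table were above 0 (4.76% of the list rose, against 0.534% of all genes tested). The list does not hold Gabrr2, a GABA receptor rho subunit gene, which fell by 4.12 ± 0.95 log2 units in the authors' deposited table (adjusted p = 0.0451) at rank 13609 and is named after its value was seen.

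Glutamatergic markers were mixed. Mef2c, a transcription factor of cortical neurons, rose by 0.81 ± 0.22 log2 units in the authors' deposited table. Slc17a6, the vesicular glutamate transporter VGLUT2, fell by 5.76 ± 1.33 log2 units in the authors' deposited table, at rank 13018 (adjusted p = 0.0451). These were the 2 of 32 listed, with 11 in the table, that passed. Each direction was 3.125% of the list, against 0.534% risen and 0.943% fallen of all genes tested. Neurod6, an excitatory lineage factor, had -3.66 ± 1.10 log2 units in the authors' deposited table. Whether the GABAergic and glutamatergic lists differ was not tested.

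Pan-neuronal and synaptic genes gave 5 risen entries over 2 lists of 30 and 49 genes, with Snap25 in both (6.67% and 6.12% of those listed, against 0.534% of all genes tested). Scg2, a granin of secretory vesicles, rose by 1.32 ± 0.25 log2 units in the authors' deposited table (adjusted p = 0.00933). Synpr (synaptoporin), a vesicle membrane protein at rank 434, rose by 1.34 ± 0.29 log2 units in the authors' deposited table (adjusted p = 0.0328). Snap25, of the release machinery, rose by 0.96 ± 0.26, and Amph, which retrieves vesicle membrane, by 0.92 ± 0.26 log2 units in the authors' deposited table. None of either list fell; the neurofilament gene Nefm had -2.88 ± 0.99 log2 units in the authors' deposited table. Above 0 were 22 of the 23 pan-neuronal genes in the table and 23 of the 25 synaptic ones. No ion channel gene of the 48 listed passed (5 above and 1 below 0 at an unadjusted p under 0.05); the calcium channel gene Cacnb4 came nearest with 1.03 ± 0.31 log2 units in the authors' deposited table (adjusted p = 0.11). Channel genes outside the list passed in both directions. The acid-sensing channel gene Asic2 rose by 2.05 log2 units in the authors' deposited table (adjusted p = 0.0944). Among those that fell were the potassium channel genes Kcnv1 at -4.31 ± 1.20 and Kcnq1 at -3.89 ± 1.05. The sodium leak channel gene Nalcn fell too, at -4.36 ± 1.14 log2 units in the authors' deposited table. Kcnq1 and Nalcn are named after their values were seen.

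Adhesion and guidance genes were among the further rises. Pcdh7, a protocadherin (chr5:57717967-58133230, plus strand), had the lowest adjusted p of all risen genes, with a rise of 1.51 ± 0.25 log2 units in the authors' deposited table (adjusted p = 0.00357). Among 46 axon guidance genes Sema3c, a secreted semaphorin, rose by 1.03 ± 0.25 and Epha3, an ephrin receptor, by 1.61 ± 0.45 log2 units in the authors' deposited table (4.35% of those listed, against 0.534% of all genes tested). Above 0 were 11 and below 0 were 15 of the 26 guidance genes in the table, with a median of -0.17. Sema3b, a semaphorin gene outside the list that is named after its value was seen, fell by 4.33 ± 1.25 log2 units in the authors' deposited table (adjusted p = 0.0969). Il1rapl1 and Lrrc7, both proteins of excitatory synapses, rose by 1.73 ± 0.43 and 1.66 ± 0.36, and Negr1, a neuronal adhesion protein, by 1.53 ± 0.42 log2 units in the authors' deposited table. Sorcs2, a receptor of neurotrophin precursors, rose by 1.43 ± 0.31, and Serpini1 (neuroserpin), a protease inhibitor made by neurons, by 1.65 ± 0.37 log2 units in the authors' deposited table. Calcium handling genes among the rises were Cabp1, a calmodulin-like regulator of calcium channels, at 2.00 ± 0.42, Calm2 (calmodulin) at 0.63 ± 0.17 and the plasma membrane pump Atp2b1 at 0.63 ± 0.17 log2 units in the authors' deposited table. Meg3, a long noncoding RNA abundant in neurons, rose by 1.15 ± 0.28 log2 units in the authors' deposited table.

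Of 43 splicing and RNA-binding genes, with 26 in the table, 2 rose and none fell (4.65% of those listed, against 0.534% of all genes tested). Son, a scaffold of nuclear speckles, rose by 0.76 ± 0.18 and Ptbp2, the neuronal splicing repressor, by 0.94 ± 0.25 log2 units in the authors' deposited table, with adjusted p of 0.0451 and 0.0765. Outside the list, Sf3b1 and Rbm39, both of the spliceosome, rose by 0.60 ± 0.17 and 0.70 ± 0.19 log2 units in the authors' deposited table. RNA processing genes outside the list also fell, among them Cpsf4, of cleavage and polyadenylation, at -1.66 ± 0.42 and Tfip11, of spliceosome disassembly, at -1.51 ± 0.35 log2 units in the authors' deposited table, both named after their values were seen. Hdac9, a histone deacetylase regulated by activity, was the 1 of 39 chromatin genes that rose (2.56%), by 1.11 ± 0.27 log2 units in the authors' deposited table. Igf1, a growth factor and with Scg2 the other riser of 23 listed neuropeptide genes, rose by 0.83 ± 0.22, and Cox6c, of cytochrome oxidase, by 0.72 ± 0.20 log2 units in the authors' deposited table. The 2 risers Scg2 and Igf1 were 8.70% of the neuropeptide list, where 6 of the 14 genes in the table were above and 8 below 0. Outside that list, the neuropeptide precursor gene Pomc fell by 2.85 ± 0.77 log2 units in the authors' deposited table. The growth factor gene Gdnf fell by 4.34 ± 1.23 log2 units. Both are named after their values were seen. Cox6c was the 1 of 56 oxidative phosphorylation genes that passed (1.79%). Of all genes tested 0.534% rose. All 32 of that list in the table were above 0, with a median of 0.31, and 14 had an unadjusted p under 0.05. Of these 32, 28 rose at day 2, which was enough to list them. Members outside the table have no values here. Of 64 ribosomal protein genes (1 at an unadjusted p under 0.05) and 29 cholesterol genes (0 at that level) none passed.

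Several markers of blood vessels fell at day 3. Of 40 endothelial markers, with 25 in the table, 9 fell and none rose (22.5% of those listed, against 0.943% of all genes tested), and all 25 were below 0. At day 2, 14 of these 25 fell and 1 rose, which was enough to list them. Cldn5, the tight junction protein of the blood-brain barrier, fell by 2.09 ± 0.55 log2 units in the authors' deposited table (4.26-fold lower, adjusted p = 0.074). The VEGF receptor genes Flt1 and Flt4 fell by 2.76 ± 0.72 and 3.35 ± 0.95 log2 units in the authors' deposited table. Slco1a4, a barrier transporter, fell by 3.74 ± 0.87 log2 units in the authors' deposited table (adjusted p = 0.0451), and Foxq1, a transcription factor, by 2.53 ± 0.62. The others that fell were the surface antigens Ly6a and Ly6c1, the Wnt effector Lef1 and the guidance receptor Robo4, with changes of -1.92, -1.90, -2.26 and -4.03 in the authors' deposited table. Ets1 (-1.89 ± 0.56), Abcb1a (-2.80 ± 0.91) and Eng (-1.84 ± 0.60) had like values without passing in the authors' deposited table. Further vessel genes that fell, named after their values were seen, were Cd93 at -2.87, Ctla2a at -2.41 and Tmem204 at -3.14 in the authors' deposited table.

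Markers of oligodendrocytes, the myelinating glia, were lower as well. Olig2, their lineage factor (chr16:91225457-91228677, plus strand), had the lowest log2 fold change of the comparison and fell by 7.97 ± 1.39 log2 units in the authors' deposited table (adjusted p = 0.00486). Sox10, the factor that drives myelin genes, fell by 3.50 ± 0.99 log2 units in the authors' deposited table (adjusted p = 0.0922). These were 2 of 28 markers (7.14%, against 0.943% of all genes tested). Of the 28, 11 are in the table and all 11 were below 0, with Opalin, a myelin protein, at -3.73 ± 1.33 and Fa2h, which makes myelin lipids, at -3.48 ± 1.30 log2 units in the authors' deposited table. All 11 also fell at day 2, so a fall at that day was enough to list them. The other markers have no values here. Olig2 and Sox10 also stand in the list of oligodendrocyte progenitors, where no other member of the 14 passed. The progenitor marker Pdgfra had -1.73 ± 1.01 log2 units in the authors' deposited table. Nkx2-2, another factor of this lineage that is in no list, fell by 5.21 ± 1.38 log2 units in the authors' deposited table.

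In the lists of other cell types few members passed the threshold. Genes outside these lists did fall. The glial adhesion gene Hepacam fell by 3.74 ± 0.92 log2 units in the authors' deposited table. The myeloid receptor gene Siglece fell by 5.23 ± 1.22 log2 units. Both are named after their values were seen. Among 27 mural, fibroblast and meningeal markers Slc6a13, a GABA transporter of the meninges, fell by 4.75 ± 1.33 log2 units in the authors' deposited table (3.70% of those listed, against 0.943% of all genes tested). No astrocyte marker of 26, with 13 in the table, passed (1 at an unadjusted p under 0.05), and Gfap had 1.70 ± 1.05 log2 units in the authors' deposited table. No microglia marker of 31, with 6 in the table, and no ependymal marker of 12, with 3 in the table, passed (1 and 2 at an unadjusted p under 0.05); Csf1r, the receptor that microglia need, had -0.20 ± 0.42 and Foxj1, of ciliated ependyma, -4.67 ± 1.38 log2 units in the authors' deposited table. Among 36 reactive astrocyte genes 1 rose and 2 fell, 1 of the fallen being Hspb1. These were 2.78% and 5.56% of those listed, against 0.534% and 0.943% of all genes tested. S100a10 rose by 0.81 ± 0.21 and Nes (nestin), an intermediate filament of progenitors and reactive glia, fell by 1.49 ± 0.41 log2 units in the authors' deposited table. In bulk cultures, fewer cells of a type and less RNA per cell cannot be told apart. The part that these marker changes had in the higher values of neuronal genes was not tested.

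**Figure D2:**
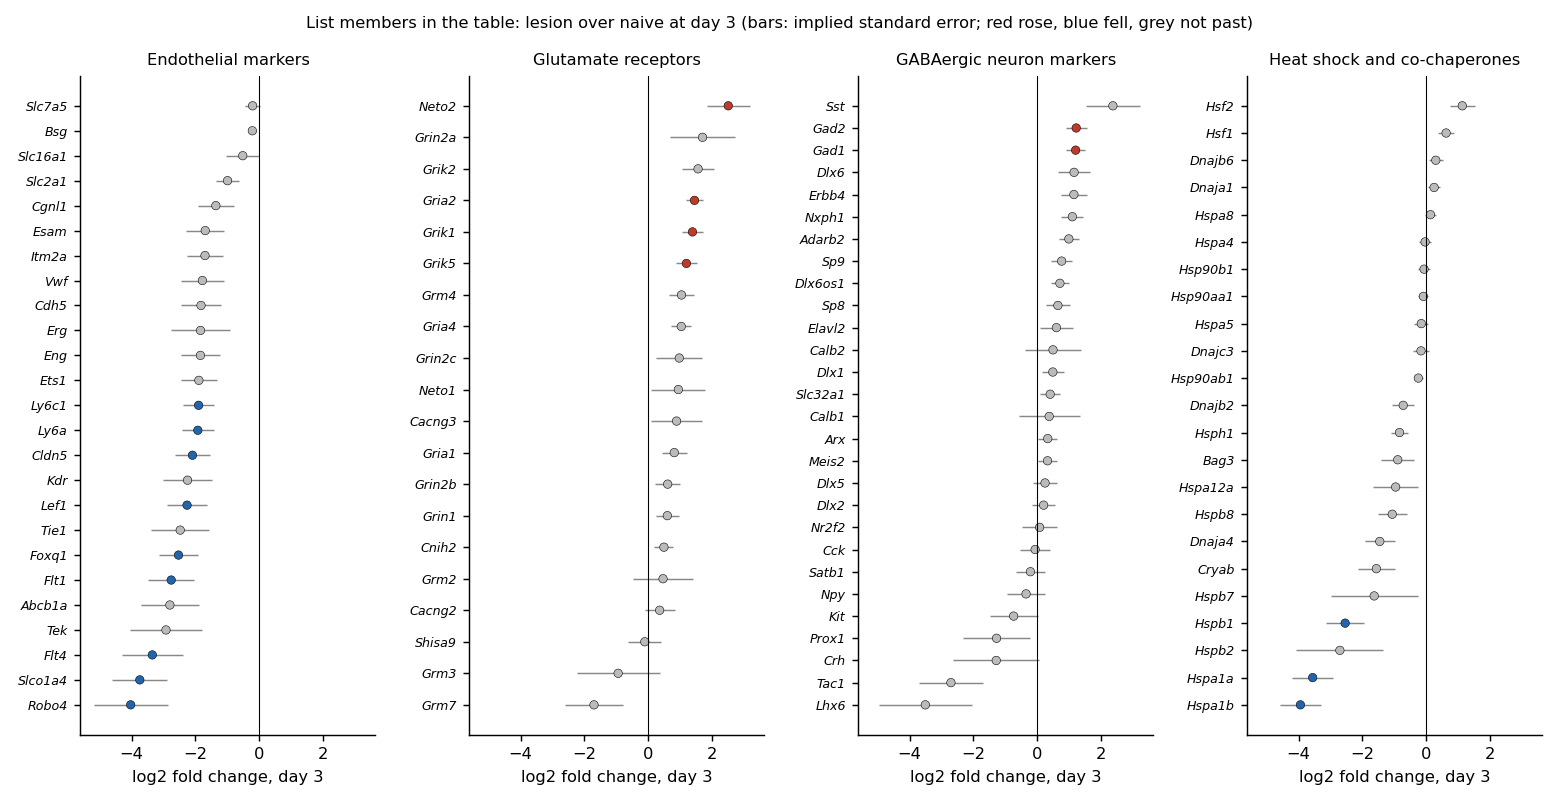
Log2 fold change of lesion over naive at day 3 for the listed genes that are in the authors' deposited table, in 4 lists, with 1 GABAergic marker not shown; points are single genes and bars the implied standard error, red for rose, blue for fell and grey for not past. All 25 endothelial markers lie left of 0 and 17 of 20 glutamate receptor genes right of 0.

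Inflammatory genes of the lists that passed were all lower in lesion cultures. Of 44 cytokine and chemokine genes, with 29 in the table, the monocyte attractants Ccl7 and Ccl12 had -5.42 ± 1.28 and -5.07 ± 1.26 and both fell in the authors' deposited table, and none rose (4.55% of those listed fell, against 0.943% of all genes tested). Of 41 interferon response genes, with 18 in the table, 2 fell. Mx2, a polymorphic pseudogene in GENCODE, fell by 5.89 ± 1.25 log2 units in the authors' deposited table (adjusted p = 0.0328). The guanylate-binding protein gene Gbp3 fell by 3.26 ± 0.93. These were 4.88% of the list, and all 18 were below 0, with a median of -2.26, among them Oasl1 at -3.92 ± 1.18 and Ifitm3 at -2.06 ± 0.63 without passing in the authors' deposited table. Myd88, the adaptor of Toll-like receptors, fell by 2.08 ± 0.56 log2 units in the authors' deposited table. The 4 list members that passed had ranks from 12362 (Gbp3) to 16768 (Ccl12), in the range where only large changes could pass.

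Of the 180 fallen genes 124 stood beyond rank 9542, among them many of the largest falls. Lmo1, a transcriptional cofactor, fell by 6.27 ± 1.02 with an adjusted p of 0.00316, the lowest of the comparison together with Hspa1b and Gdf15, in the authors' deposited table. Bbs10, of the primary cilium, fell by 6.13 ± 1.33 and Dpyd, which breaks down pyrimidines, fell by 6.02 ± 1.34 log2 units in the authors' deposited table. Creb5, a CREB-type factor, fell by 5.02 ± 0.95 and Klhl15, a ubiquitin ligase adaptor, fell by 5.25 ± 0.98, each with an adjusted p of 0.00806 or less, in the authors' deposited table. Of 14 histone genes with Hist names in the table, a group formed after values were seen, 6 fell and none rose, with ranks from 14353 to 18202. Of all genes tested 0.943% fell. The 14 had each passed at some day, and how many Hist genes were tested is unknown. Hist1h2bf, of H2B, fell by 5.73 ± 1.05 log2 units in the authors' deposited table. No gene of the 39 cell cycle genes passed at day 3 (1 above and 3 below 0 at an unadjusted p under 0.05), and Mcm3, of the replicative helicase, had -2.82 ± 0.94 log2 units in the authors' deposited table. Cell cycle genes outside the list did fall. The centromere gene Cenpn had -3.61 ± 1.03 in the authors' deposited table. The kinase gene Pkmyt1, named after its value was seen, had -3.96 ± 1.00. Of the 50 extracellular matrix genes none passed, with 1 above and 6 below 0 at an unadjusted p under 0.05.

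The same contrast at the other days, each with its own lesion and naive libraries, gives the day 3 changes a place in time. No gene was found to differ between days 2 and 3 by the test of the difference described after these values, whose lowest adjusted p was 0.321; 557 genes of the table differed at an unadjusted p under 0.05. Of the 102 genes that rose at day 3, 45 rose and 1 fell at day 2 (of all genes tested 1.89% rose and 4.08% fell at that day). Of the 180 that fell, 101 fell at day 2 and none rose. At day 1, 1 of the 102 rose (0.0891% of all genes) and none of the 180 fell (0.529% of all genes). The 102 genes had a median of 0.53 at day 1, where 93 were above 0, and the 180 had a median of -0.50, where 129 were below 0. Ptbp2 was the 1 gene that fell at day 2 and rose at day 3, at -0.63 (adjusted p = 0.0771) and 0.94 in the authors' deposited table.

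Day 5 gave the opposite sign for most risen genes. Of the 102, 75 fell at day 5 (73.5%, with 11.2% of all genes fallen) and 1 rose, and their median log2 fold change at day 5 was -1.07. The 1 that rose was Pcdh7, with 0.74, 1.51 and 0.69 in the authors' deposited table at days 2, 3 and 5, past the threshold at each. Gria2 had 1.63, 0.79, 1.46, -1.71 and -0.95 in the authors' deposited table at days 1, 2, 3, 5 and 7, with rises at the first 3 days and a fall at day 5. Gad1 had 1.06 at day 2, 1.21 at day 3, -1.64 at day 5 and -1.01 at day 7, passing at each of these 4 days in the authors' deposited table. Synpr had 1.34 at day 3, -1.86 at day 5 and -1.11 at day 7 in the authors' deposited table. Zfp804b, a zinc finger gene, had the largest fall at day 5 among risen genes, -2.53, against 2.42 at day 3 in the authors' deposited table. At day 5, 23 of the 38 listed GABAergic markers fell, with 24 of the 49 synaptic and 20 of the 30 pan-neuronal genes. Of all genes tested 11.2% fell at that day. The members in the table numbered 29, 25 and 23, each listed for passing at some day.

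Of the 180 genes that fell at day 3, 40 rose at day 5 (22.2%, with 12.8% of all genes risen) and 3 fell, and their median at day 5 was 0.52. Hspb1 had 2.24 and Cebpd 1.85 at day 5 in the authors' deposited table, both risen there. Txndc5, an endoplasmic reticulum disulfide isomerase, had -0.79 at day 3 and 2.11 at day 5 in the authors' deposited table. Hspa1b had -1.73, -2.39, -3.94, -0.57 and -0.07 in the authors' deposited table at days 1, 2, 3, 5 and 7, past the threshold at days 2 and 3. Gdf15 had -1.14, -1.33, -2.53, -0.43 and -0.98 in the authors' deposited table over the same days, also past at days 2 and 3. Olig2 had -8.29 at day 2 and -7.97 at day 3, and 0.93 at day 5 in the authors' deposited table, where it did not pass. Of the 40 endothelial markers 7 rose at day 5.

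A test of the difference between days, from the implied errors and adjusted over all genes tested, found 3657 genes (19.2%) whose change at day 3 differed from that at day 5 and 759 (3.98%) at day 7, with 4 at day 1. Of the 102 risen genes 99 were among the 3657, and of the 180 fallen genes 139, which follows in part from their choice by the day 3 value. At day 7, 2 of the 102 rose and 6 fell (3.11% and 0.985% of all genes), and 12 of the 180 rose and 5 fell. In all, 16 of the risen and 52 of the fallen genes were past the threshold at day 3 alone. Rise at days 2 and 3 with fall at day 5 was seen in 34 genes, and the mirror pattern in 17.

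**Figure D3:**
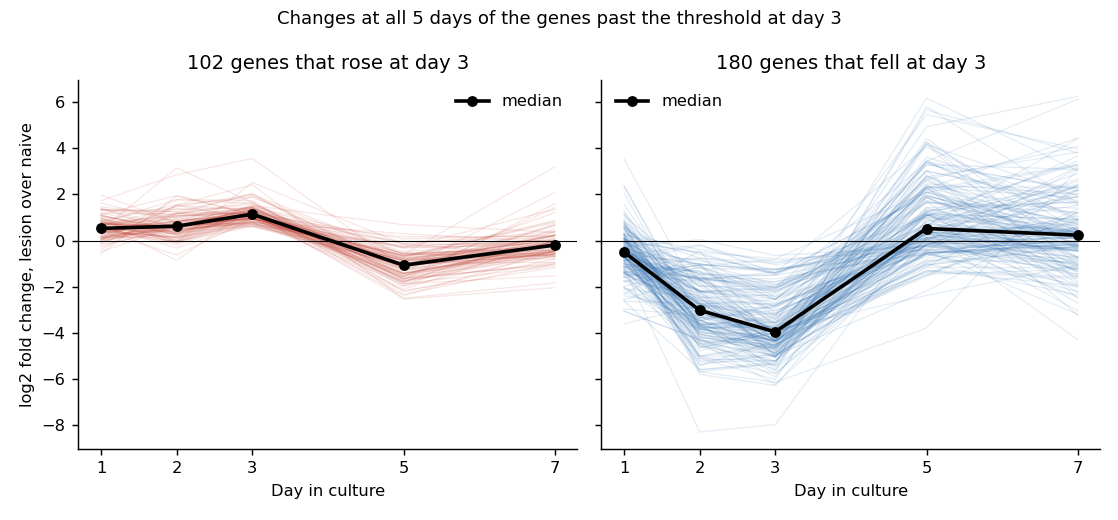
Log2 fold change of lesion over naive (vertical axis) by day in culture (horizontal axis) for the 102 genes that rose (left) and the 180 that fell (right) at day 3; thin lines are genes and black points their median. The medians of the risen genes are 1.14 at day 3 and -1.07 at day 5, and those of the fallen genes -3.95 and 0.52.

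**Figure D4:**
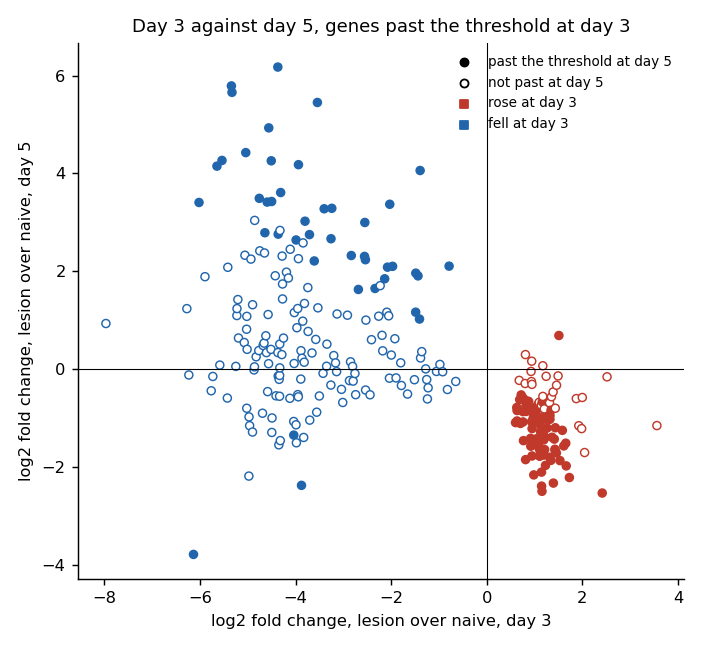
Log2 fold change at day 5 (vertical axis) against that at day 3 (horizontal axis) for the 282 genes past the threshold at day 3; filled points were also past it at day 5. Of the 102 risen genes (red) 98 lie below 0 at day 5, and of the 180 fallen genes (blue) 122 lie above it.

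The build of the genes is given as a description. Risen genes spanned a median of 69.5 kb of the genome in GENCODE vM21, fallen genes 16.2 kb, and table genes not past at day 3 24.9 kb. Among the more expressed 9542 genes the medians were 69.5, 11.0 and 28.5 kb. The longest risen genes were Il1rapl1, Asic2 (an acid-sensing channel) and Hdac9, at 1375, 1088 and 870 kb. Risen genes had a median of 14 exons in their transcript with most exons, and none had a single exon. Fallen genes had a median of 5 exons, and 51 of 180 had 3 or fewer (28.3%), against 5 of 102 risen genes (4.90%). Median GC content of the longest transcript was 46.1% in risen and 52.0% in fallen genes, with 48.7% over all protein-coding genes. The median length of the longest transcript was 4904 bases in risen and 2931 bases in fallen genes, and its part in the calls was not tested. The X chromosome held 8 of the 99 risen genes with a chromosome in the table (8.08%), 10 of 176 fallen ones (5.68%) and 3.48% of the others in the table.

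**Figure D5:**
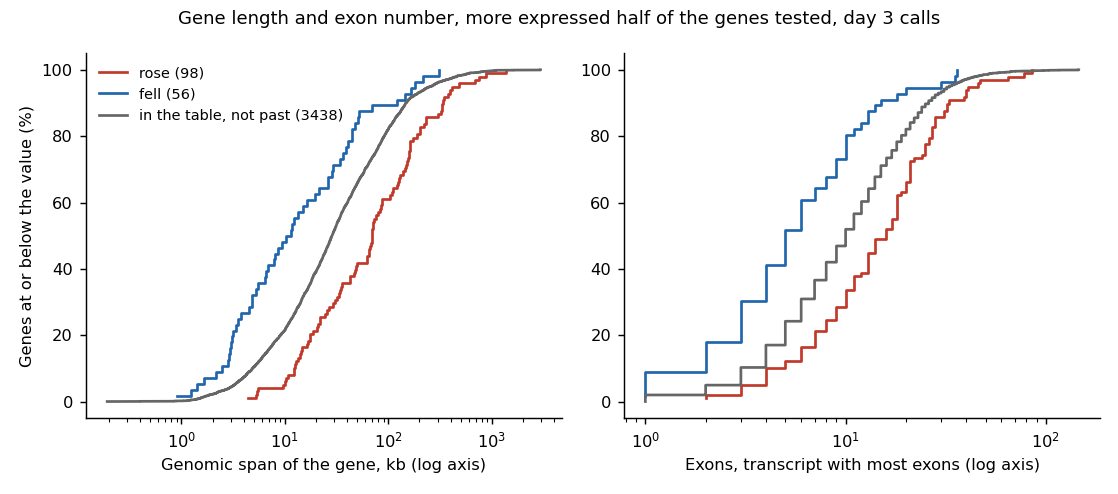
Cumulative share of genes (vertical axis, %) by genomic span in kb (left, log axis) and by number of exons in the transcript with most exons (right, log axis), for the more expressed 9542 genes tested; red rose (98), blue fell (56), grey in the authors' deposited table and not past at day 3. The red curve lies right of the grey one and the blue curve left of it for genomic span.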

How the data were processed

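RNA from 29 libraries of adult mouse cortical cultures was sequenced on a HiSeq4000 after ultra-low-input library preparation, per the labels' protocols. Reads were aligned with STAR to mm10, per the submitters' processing notes. How reads were counted, with or without strand, and which genes were filtered is not given in the sources used here. The only file used is 1 table of the authors' comparisons. The name of the deposited file gives voom, limma and a false discovery rate of 0.1. Per the file headers, it holds for lesion against naive at each day a log2 fold change, a p-value and an adjusted p-value. The deposited table also has a column of ranks, a score with no stated unit; it followed the implied standard error (Spearman's rho 0.924 across genes, which are not independent) and is read as the rank of mean expression. It holds no counts, so depth and the precision it gives are unknown.

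Groups came from the library titles. No test could be fitted again per gene. Calls used an adjusted p under 0.1, and the Benjamini-Hochberg values of the table correspond to 19085 tests. Standard errors were implied by each log2 fold change and p from the t distribution with 37 degrees of freedom, estimated from 2067 abundant genes. Changes at different days were compared by the t statistic of their difference, with Benjamini-Hochberg adjustment over 19085 genes. Genes outside the table were taken as not differing, so these counts are lower bounds. Rebuilding of tests, errors and differences was checked on simulated data. Python 3.11.15 with numpy 2.4.6, pandas 2.3.3, scipy 1.17.1 and matplotlib 3.10.9 was used.

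The 34 gene lists (1154 genes, 633 in the table, none needing a synonym) and all other choices were made with earlier results of these data known. Shares of a list are over all its listed genes, some of which may not have been tested, and medians cover only members in the table, which had to pass at some day. Named genes passed at day 3 and were among the 20 highest or 20 lowest log2 fold changes (predicted genes and ranks above 14313 left out), the 20 smallest adjusted p-values, the lists, the genes past at 2 or more other days or those past with the opposite sign at another day, 171 genes in all; up to 4 members of a list that did not pass could also be named, and a few further genes are marked as chosen after their values were seen. A few genes that meet this rule are not reported here. Gene positions, exons and GC were taken from GENCODE vM21 on GRCm38, which is the assembly of mm10, and promoters from RefSeq (GRCm38.p6). Alternatives were other thresholds, a restriction to the more expressed 9542 genes, removal of predicted genes and 19 degrees of freedom.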

Additional observations from a re-analysis of the deposited data

Results flagged for a closer look

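The change between lesion and naive cultures at day 3 differed from that at another day for many genes, by the test of the difference itself. It differed for 4 genes at day 1, 3657 at day 5 and 759 at day 7.

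Among genes that fell at day 3 and passed with the opposite sign at another day, with predicted genes and ranks above 14313 left out, the 10 largest differences between days 3 and 5 are given here as day 3 minus day 5 on the log2 scale, from values of the authors' deposited table. The interferon-induced gene Samd9l had -11.13 and the aminopeptidase gene Enpep -10.99. The activin-binding protein gene Fst had -10.55. The carbonic anhydrase gene Car4 had -9.79, the scaffold gene Cnksr3 -9.49 and the glypican gene Gpc3 -9.47. The pyrimidine catabolism gene Dpyd had -9.43, the secreted protein gene Ism1 -9.00, the kinase gene Nrk -8.77 and the metalloprotease gene Mmp19 -7.93. All 10 rose at day 5, and their ranks lay between 11708 and 13803, where implied standard errors are large.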

How the results depend on the processing

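No paired analysis was possible because no value per library was used; for the same reason no replicate could be left out and no replicate block fitted. At an adjusted p under 0.05, 17 genes were higher and 42 lower at day 3, and at 0.01, 3 and 12. With a log2 fold change of at least 1 in size, 66 were higher. Among the more expressed 9542 genes 56 were lower. At 0.05 list members that fell numbered 1 each for oligodendrocyte, progenitor, endothelial, regeneration-associated, oxidative stress, reactive astrocyte, cytokine and interferon lists, and 0 for mural, immediate early, p53 and glycolysis lists. At 0.05 members that rose numbered 1 each for pan-neuronal, glutamate receptor, synaptic, neuropeptide and splicing lists, and 0 for GABAergic, glutamatergic, GABA and glycine receptor, guidance, oxidative phosphorylation, reactive astrocyte and chromatin lists. Among the more expressed 9542 genes, 5 endothelial, 1 oligodendrocyte and 1 progenitor marker fell, and 0 of the mural, glutamatergic, cytokine and interferon lists. Of the 171 named genes 43 kept an adjusted p under 0.05. With 19 degrees of freedom, or at 0.05, 0 genes differed between days 3 and 1; among the more expressed 9542 genes 2 did, with 2409 for day 5 and 482 for day 7, and at 0.05 405 differed for day 7. A lower limit on the adjusted p, a minimum fold change and a restriction to part of the genes each leave fewer genes to count by construction, and 19 degrees of freedom give a larger p for the same t. The depth of the libraries is unknown, which limits above all the weakly expressed genes.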
